A study of Mus musculus with 9 samples.

Results

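The data described here are the RNA levels of 10 genes that maintain spermatogonial stem cells in the mouse testis, namely Gdnf, Gfra1, Ret, Id4, Etv5, Bcl6b, Nanos2, Eomes, Lhx1 and Tspan8. The 10 rows were taken by gene symbol from a table of 22337 genes. RNA from whole testes of 3-week-old mice was sequenced, with 3 wild-type (labelled WT-WT), 3 Piwil4 WT/R264W (labelled WT-KI) and 3 Piwil4 R264W/R264W (labelled KI-KI) testes. The mutant mice were made by CRISPR-Cas9 knock-in on a C57BL/6 background, and they carry a tryptophan in place of an arginine in the PAZ domain of PIWIL4, a nuclear PIWI protein that silences transposons in the male germ line. The mutation is carried in every cell from conception and not in the germ line alone. No source used here says whether each testis came from a different mouse, so the p-values measure the spread between these 9 samples only.

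Spermatogonial stem cells either renew themselves or enter differentiation. The choice is held in balance by GDNF, a growth factor that Sertoli cells and peritubular myoid cells release, and which binds its co-receptor GFRA1 and the receptor tyrosine kinase RET on the surface of the most primitive spermatogonia. The signal raises the transcription factors ETV5, BCL6B and LHX1 and acts beside ID4, EOMES and the RNA-binding protein NANOS2, while TSPAN8 is a surface protein used to enrich stem cells in sorting. These cells are a small share of the testis, and the first wave of spermatogenesis, in progress at this age, arises from spermatogonia that differentiate without passing through the self-renewing stage.

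The libraries held between 18.0 and 24.3 M estimated counts, at which 3 counts, the most that a count of 0 allows for, come to between 0.122 and 0.172 CPM, that is counts scaled to the library's total. This floor covers counting error only. The CPM used here are scaled by the trimmed mean of M values (TMM). Markers of testis cell types were present in each library, with a summed level of 1946 to 2967 CPM for 14 Sertoli genes and of 8600 to 11963 CPM for 12 pachytene spermatocyte genes. The round spermatid genes differed far more, from 89.6 to 1679 CPM in sum, and their mean log2 CPM over 20 genes, called the spermatid score below, ran from 0.88 to 5.92. The wild-type testes scored 5.92, 2.63 and 1.46, the Piwil4 WT/R264W testes 4.96, 3.60 and 0.88, and the Piwil4 R264W/R264W testes 2.52, 3.72 and 5.75, so that each genotype held testes from widely different points of the first wave. Of 11 epididymal genes, 3 (Lcn8, Lcn9 and Defb15) were at 0 in every library, and the sum of the list was highest, at 56.6 CPM, in Piwil4 R264W/R264W testis 1 and lowest at 5.83 CPM. Piwil4 itself gave 1.59 to 1.77 CPM in wild-type, 1.12 to 2.10 in Piwil4 WT/R264W and 1.03 to 1.39 in Piwil4 R264W/R264W testes, which does not check the labels because the knock-in changes a codon and not the gene's presence.

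The upstream sequences of 3 of the genes are shown because these genes stand for the range of levels described below. Id4 had the highest mean FPKM, Eomes was among the 3 lowest genes, whose levels overlapped, and Gdnf is the ligand. Each is the run of 250 bases before a RefSeq transcription start (GRCm38.p6), written 5′ to 3′ on the gene's own strand, at chr13:48260866-48261115 (plus strand) for Id4, chr15:7809798-7810047 (plus strand) for Gdnf and chr9:118477939-118478188 (plus strand) for Eomes. None overlaps an annotated GENCODE exon of its gene. Capitals mark a CCAAT box (CCAAT, or ATTGG where it lies on the other strand) and a TATA box (TATAAA).
Id4: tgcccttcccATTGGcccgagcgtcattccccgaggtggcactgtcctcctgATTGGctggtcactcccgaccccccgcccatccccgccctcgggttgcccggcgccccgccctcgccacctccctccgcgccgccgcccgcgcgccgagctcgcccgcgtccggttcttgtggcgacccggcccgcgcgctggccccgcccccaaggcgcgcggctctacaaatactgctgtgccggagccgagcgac
Gdnf: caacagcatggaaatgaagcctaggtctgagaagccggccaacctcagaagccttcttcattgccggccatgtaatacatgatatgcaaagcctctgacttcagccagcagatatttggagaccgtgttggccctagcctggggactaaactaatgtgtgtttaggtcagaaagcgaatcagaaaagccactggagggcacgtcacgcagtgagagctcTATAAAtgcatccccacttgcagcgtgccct
Eomes: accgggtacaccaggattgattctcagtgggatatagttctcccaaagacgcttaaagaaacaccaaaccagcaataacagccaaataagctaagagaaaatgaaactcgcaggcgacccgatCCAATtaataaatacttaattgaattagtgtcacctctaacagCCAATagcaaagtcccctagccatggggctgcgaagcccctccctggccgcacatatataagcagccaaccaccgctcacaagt
The Id4 window was 75.6% G and C, against 50.8% for Gdnf, 46.4% for Eomes and a median of 52.4% over 32851 RefSeq promoter windows of the same length. It held CCAAT 2 times, both on the opposite strand and at least 193 bases before the start. The Gdnf window shown held TATAAA ending 25 bases before the start and no CCAAT. A further Gdnf window, at chr15:7813477-7813726 (plus strand) and not shown, differed from it. That window was 46.8% G and C, had no TATAAA and held CCAAT 1 time, ending 115 bases before its start. The Eomes window held CCAAT 2 times, the nearer ending 79 bases before the start. Over both strands, TATAAA was found in 12.4% and CCAAT in 33.8% of all windows. RefSeq entries matched 8 of the 10 genes, with 10 windows in all, of which 8 held CCAAT and 2 held TATAAA. The other window with TATAAA was that of Nanos2. Ret and Bcl6b had no entry. An ETS core (CCGGAA, in 12.0% of all windows), an E-box (CAGCTG, 13.0%) and an octamer (ATGCAAAT, 1.6%) were also searched for on both strands and are in none of the windows shown. The sequences describe these windows and were not tested against the levels.

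Levels of different genes were compared as FPKM, which the authors computed per length of transcript. Over the 9 testes Id4, a helix-loop-helix protein that blocks differentiation factors, averaged 17.1 ± 1.38 FPKM (SD, n = 9). Etv5, an ETS factor induced by GDNF, followed at 6.0 ± 0.99, and the order of these genes was the same in 9 of 9 testes. The co-receptor Gfra1 (1.54 ± 0.82) and the transcriptional repressor Bcl6b (1.5 ± 0.18) did not differ beyond their spread, and Gfra1 was the higher one in 3 of 9 testes. Ret (0.90 ± 0.27) and Tspan8 (0.87 ± 0.41) could not be ordered either, with Ret the higher in 3 of 9. Gdnf averaged 0.52 ± 0.18 FPKM and stood above the remaining genes in 9 of 9 testes, while Lhx1 (0.13 ± 0.11), Nanos2 (0.078 ± 0.048) and Eomes (0.053 ± 0.041) were close to the limit of detection and overlapped.

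The Gfra1 average in FPKM rested on 1 library. Wild-type testis 3 was listed at 3.59 FPKM, whereas the other 8 testes lay between 0.93 and 1.78, although its 101 counts (4.87 CPM) were within the range of the others, which was 73 to 163 counts. The transcript length implied by count, FPKM and depth was 1395 bases in this testis and 3812 to 4667 bases in the rest. Gfra1 has 9 annotated transcripts of 349 to 4641 bases. The same arithmetic gave 3541 and 3509 bases for Etv5 in Piwil4 WT/R264W testes 1 and 2, and 4068 to 4092 bases in the other 7. For Tspan8 it gave 872 bases in Piwil4 WT/R264W testis 3 and 931 in Piwil4 R264W/R264W testis 1, and 1091 to 1305 in the rest. For Lhx1, at 1 to 15 counts, it ran from 1113 to 4350 bases. FPKM and counts therefore do not rank the testes alike for these genes, and genotypes were compared on counts. The cause of the length differences was not tested.

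**Figure D1:**
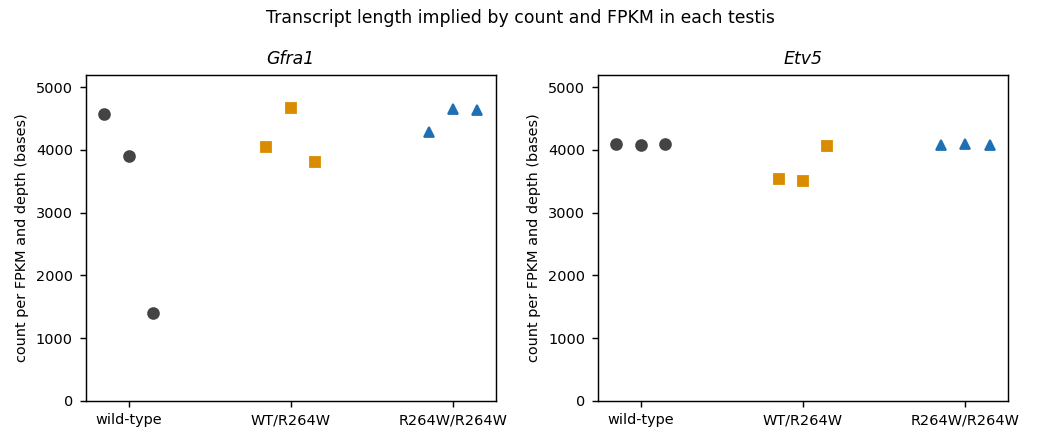
The transcript length in bases that follows from the count, the FPKM and the library's depth is plotted for Gfra1 (left) and Etv5 (right), 1 point for each of the 9 testes by genotype. Wild-type testis 3 sits at 1395 bases for Gfra1, and Piwil4 WT/R264W testes 1 and 2 lie at 3541 and 3509 bases for Etv5, below the other 7.

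Whether the mutation altered these genes was examined first by genotype. In the quasi-likelihood test of edgeR, with the adjusted p required to be under 0.05, 0 of the 10 genes differed in any of the 3 comparisons of genotypes, and 0% of all genes tested did so. DESeq2 also called 0 of the 10 in each. At an unadjusted p under 0.05, 0 of the 10 were counted for Piwil4 R264W/R264W against wild-type (1.26% of all 15543 genes tested), 1 for Piwil4 R264W/R264W against Piwil4 WT/R264W (2.22% of 15463) and 0 for Piwil4 WT/R264W against wild-type (1.11% of 15413), with 0, 1 and 0 by DESeq2. Of the 10 genes, 7 passed edgeR's filter on low counts and Nanos2, Eomes and Lhx1 did not. The groups of 3 did not overlap in CPM for 2 of the 10 genes in the first comparison (5.68% of all genes), 3 in the second (7.15%) and 1 in the last (5.31%). With 3 testes against 3, an exact two-sided permutation test gives no p below 0.1. In whole testes the RNA of a gene is not assigned to a cell type, so none of these levels counts stem cells. Gdnf is made by the Sertoli and peritubular myoid cells named above. For RNA from stem cells, fewer cells and less RNA for each cell cannot be told apart.

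**Figure D2:**
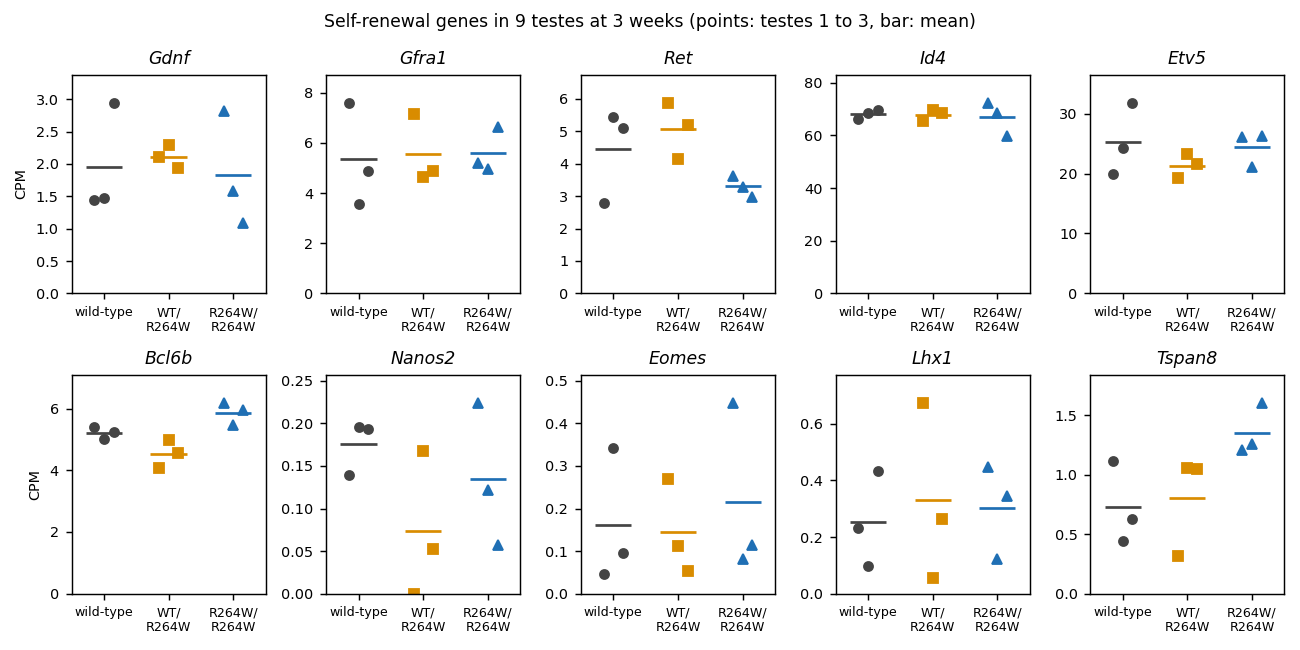
Each panel plots the CPM of 1 gene on its own linear axis from 0, with 3 testes (points, in the order of their numbers) and their mean (bar) for each genotype. Ret lies at 2.98 to 3.62 CPM in Piwil4 R264W/R264W, below all Piwil4 WT/R264W testes, Bcl6b separates all 3 genotypes, and Nanos2, Eomes and Lhx1 stay at or below 0.672 CPM.

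Gdnf (ENSMUSG00000022144; GRCm38 chromosome 15, 7810846 to 7837575, plus strand), the ligand, was measured at 1.44, 1.47 and 2.94 CPM in wild-type, 2.11, 2.29 and 1.94 in Piwil4 WT/R264W and 2.82, 1.59 and 1.09 in Piwil4 R264W/R264W testes. These CPM stood for 19 to 63 counts. The high value of one testis in the wild-type and in the Piwil4 R264W/R264W group left all 3 groups overlapping. The log2 fold changes in edgeR were -0.09 (95% confidence interval -1.18 to 1.01) for Piwil4 R264W/R264W against wild-type, -0.20 (-1.06 to 0.66) against Piwil4 WT/R264W and 0.11 (-0.69 to 0.91) for Piwil4 WT/R264W against wild-type. The variance of its counts scaled to a common depth was 4.26 times their mean, where counting alone gives 1, and no difference in Gdnf was detected beyond this spread.

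Gfra1 (ENSMUSG00000025089; GRCm38 chromosome 19, 58235604 to 58455909, minus strand), the co-receptor that binds GDNF, gave 7.59, 3.58 and 4.87 CPM in wild-type, 7.17, 4.64 and 4.89 in Piwil4 WT/R264W and 5.19, 4.96 and 6.64 in Piwil4 R264W/R264W testes. In each genotype the testis with the highest spermatid score also had the most Gfra1. The genotype means were 5.35 ± 2.05, 5.56 ± 1.40 and 5.60 ± 0.91 CPM (SD, n = 3) and the log2 fold changes were 0.06, 0.01 and 0.05, with every testis group overlapping every other. With libraries scaled to the Sertoli genes the fold changes were -0.04, 0.12 and -0.16, in the same order, and this scaling moved the median of all genes by -0.060, 0.10 and -0.16. The differences in log2 level relative to the Sertoli genes of the same library were 0.08, 0.13 and -0.05, so that no direction is given for Gfra1 between either mutant genotype and wild-type.

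Ret (ENSMUSG00000030110; GRCm38 chromosome 6, 118151745 to 118197718, minus strand), the tyrosine kinase receptor that GDNF and GFRA1 engage, had the smallest p of the 10 genes in the genotype comparisons. It was measured at 2.79, 5.44 and 5.11 CPM in wild-type, 5.87, 4.13 and 5.20 in Piwil4 WT/R264W and 3.62, 3.30 and 2.98 in Piwil4 R264W/R264W testes. All Piwil4 R264W/R264W testes lay below all Piwil4 WT/R264W testes, and below wild-type testes 2 and 3 but above wild-type testis 1. The log2 fold change against Piwil4 WT/R264W was -0.62 ± 0.20 (SE; 95% confidence interval -1.09 to -0.15), with an adjusted p of 0.948 over 15463 genes in edgeR. The unadjusted value from edgeR was 0.0170, and the difference did not pass the adjusted test. It was -0.51 with libraries scaled to the Sertoli genes and -0.56 with the spermatid score as a covariate. With each library left out it lay between -0.75 and -0.49, and the unadjusted p in edgeR was under 0.05 in 4 of 6 fits. Over 14 alternative fits the adjusted p was 0.641 to 1.0. Against wild-type the fold change was -0.43 (-1.11 to 0.25). Without wild-type testis 1, the testis with the highest spermatid score, it was -0.68 with an unadjusted p of 0.0124 and an adjusted p of 0.625 in edgeR, the lowest of 14 alternatives.

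**Figure D3:**
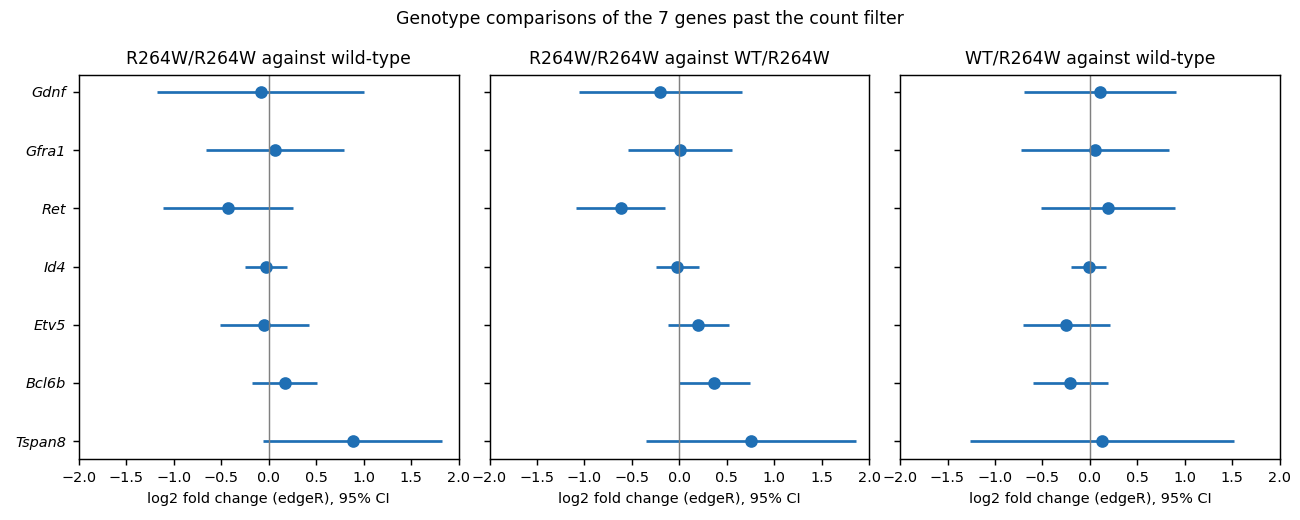
The log2 fold change (point) and its 95% confidence interval (line) from edgeR are plotted for the 7 genes past the filter in the 3 genotype comparisons. For Ret the interval of Piwil4 R264W/R264W against Piwil4 WT/R264W, -1.09 to -0.15, leaves out 0, and the other 20 intervals include it.

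Among the transcription factors, Etv5 (ENSMUSG00000013089; GRCm38 chromosome 16, 22381309 to 22439719, minus strand) had 19.9, 24.2 and 31.8 CPM in wild-type, 19.2, 23.2 and 21.6 in Piwil4 WT/R264W and 26.2, 21.1 and 26.3 in Piwil4 R264W/R264W testes. Wild-type testis 3 was the highest of the 9 and the groups overlapped. The fold change was -0.05 (-0.52 to 0.42) for Piwil4 R264W/R264W against wild-type, 0.20 (-0.12 to 0.52) against Piwil4 WT/R264W and -0.25 (-0.71 to 0.21) for Piwil4 WT/R264W against wild-type. Id4 (ENSMUSG00000021379; GRCm38 chromosome 13, 48261228 to 48266026, plus strand) was the steadiest of the genes, at 66.3, 68.5 and 69.8 CPM in wild-type, 65.5, 69.5 and 68.5 in Piwil4 WT/R264W and 72.2, 68.6 and 59.6 in Piwil4 R264W/R264W testes. This ranking is by the coefficient of variation over the 9 testes. For Id4 it was 5.31%, against 12.4% for Bcl6b, 16.6% for Etv5, 24.1% for Gfra1 and 27.1% for Ret. Counting error adds more to it in genes of lower counts. The variance of counts scaled to a common depth was 3.95 times their mean for Id4 and 1.67 times for Bcl6b. For Etv5, Gfra1 and Ret it was 13.5, 6.60 and 6.51 times, where counting alone gives 1. The fold change of Id4 between Piwil4 R264W/R264W and wild-type was -0.03, with the narrowest interval of the 7 genes, -0.25 to 0.19. Transcripts A330033J07Rik and Gm49291 lie on the opposite strand of Id4, and the strand setting of the counting is not given in the sources used here, so reads of the pairs cannot be told apart. The same holds for Gfra1 with Gm16277, Nanos2 with Gm45058, Eomes with Gm33460 and Tspan8 with 4930422I22Rik.

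Bcl6b (ENSMUSG00000000317; GRCm38 chromosome 11, 70224128 to 70229798, minus strand), a zinc finger repressor that GDNF induces, had 5.40, 5.0 and 5.26 CPM in wild-type, 4.08, 4.97 and 4.57 in Piwil4 WT/R264W and 6.17, 5.45 and 5.95 in Piwil4 R264W/R264W testes. The 3 groups did not overlap, with Piwil4 WT/R264W lowest and Piwil4 R264W/R264W highest, an order that does not follow the number of mutant alleles, the nearest testes of neighbouring groups lying at 4.97 and 5.0 CPM and at 5.40 and 5.45 CPM. The fold change was 0.37 (-0.01 to 0.74; unadjusted p = 0.0527, adjusted p = 0.948, edgeR) for Piwil4 R264W/R264W against Piwil4 WT/R264W, 0.17 (-0.18 to 0.51) against wild-type and -0.21 (-0.60 to 0.19) for Piwil4 WT/R264W against wild-type. Bcl6b is also known from endothelium, and the mean log2 CPM of 7 endothelial genes was 1.86 to 2.11 in wild-type, 1.85 to 2.07 in Piwil4 WT/R264W and 1.85 to 2.30 in Piwil4 R264W/R264W testes, with overlapping groups.

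Lhx1, Eomes and Nanos2 were too low for a comparison. Lhx1 (ENSMUSG00000018698; GRCm38 chromosome 11, 84518284 to 84525535, minus strand), a homeobox factor induced by GDNF, had counts of 5, 2 and 9 in wild-type, 15, 1 and 5 in Piwil4 WT/R264W and 10, 3 and 6 in Piwil4 R264W/R264W testes. Eomes (ENSMUSG00000032446; GRCm38 chromosome 9, 118478212 to 118486132, plus strand), a T-box factor of a rare stem cell subset, had 1, 7 and 2, then 6, 2 and 1, and then 10, 2 and 2 counts in the same order. Nanos2 (ENSMUSG00000051965; GRCm38 chromosome 7, 18987400 to 18988962, plus strand), which represses differentiation through its target RNAs, had 3, 4 and 4, then 0, 3 and 1, and then 5, 3 and 1 counts. The variance of counts scaled to a common depth was 0.946 times their mean for Nanos2, close to the value of 1 that counting alone gives, and 2.46 and 2.77 times for Eomes and Lhx1. A difference between genotypes in these 3 genes was not detectable at these counts.

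Tspan8 (ENSMUSG00000034127; GRCm38 chromosome 10, 115816832 to 115849893, plus strand), the surface protein, had 1.12, 0.44 and 0.63 CPM in wild-type, 0.31, 1.06 and 1.05 in Piwil4 WT/R264W and 1.21, 1.26 and 1.60 in Piwil4 R264W/R264W testes. These stood for 7 to 31 counts. In CPM the 3 Piwil4 R264W/R264W testes were the highest of the 9, and the other genotypes overlapped. In FPKM they lay at 1.17 to 1.32, and Piwil4 WT/R264W testis 3, at 1.26, was within that range. The fold change was 0.88 ± 0.39 (SE; -0.06 to 1.83) against wild-type, with an unadjusted p of 0.0619 and an adjusted p of 1.0 in edgeR, and 0.75 (-0.35 to 1.86) against Piwil4 WT/R264W. It was 0.64 to 1.33 against wild-type with each library left out. The mean log2 CPM of 6 macrophage genes was also highest on average in Piwil4 R264W/R264W testes, with overlapping groups. It was 3.13 to 3.38 there, 3.00 to 3.13 in wild-type and 2.97 to 3.17 in Piwil4 WT/R264W testes. Other lists were highest there on average too, among them the Leydig cell, endothelial, peritubular myoid, pachytene and spermatid genes. The Sertoli, early meiotic and differentiating spermatogonia lists were highest in Piwil4 WT/R264W testes. The part of any list in the Tspan8 values was not tested.

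A level for each unit of whole-testis RNA depends on which other cells are present, so each gene was also set against the mean log2 CPM of the Sertoli genes of the same library. By this measure 0 of the 10 genes had groups that did not overlap for Piwil4 R264W/R264W against wild-type (6.70% of all genes tested), 3 for Piwil4 R264W/R264W against Piwil4 WT/R264W (8.25%) and 1 for Piwil4 WT/R264W against wild-type (7.34%). The 3 were Ret, lower by a log2 difference of -0.50, and Bcl6b and Tspan8, higher by 0.47 and 0.98, each with p = 0.1 in the exact permutation test, the smallest it can give. The 1 was Nanos2, which rested on 4 counts in 3 Piwil4 WT/R264W testes. Scaling to the Sertoli genes moved the median fold change of all genes by 0.10 for Piwil4 R264W/R264W against Piwil4 WT/R264W and by -0.16 for Piwil4 WT/R264W against wild-type, and relative to these shifts the Ret difference was unaltered in direction.

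The levels were then related to the stage of the first wave. The spermatid score entered the edgeR fit of all 9 testes as a continuous term beside genotype, and at an adjusted p under 0.05 the fit called 17.5% of 15751 genes higher and 8.58% lower with the score. Of the 10 stem cell genes, 1 was called, Gfra1, which was higher by 0.15 ± 0.050 log2 units (SE) for each unit of score (unadjusted p = 0.0113, adjusted p = 0.0449, edgeR). Over the whole range of the score this is a fitted 1.67-fold difference. DESeq2 gave a slope of 0.15 with an adjusted p of 0.0569 and called 0 of the 10. The call was lost without any one of 8 of the 9 libraries, that is all but Piwil4 WT/R264W testis 2, with slopes of 0.10 to 0.17 and adjusted p of 0.0226 to 0.357, and was lost with the replicate number as a block (slope 0.13, adjusted p = 0.0867). Scaled to the Sertoli genes the slope was 0.20 (adjusted p = 0.00798, edgeR), a scaling that moved the median slope of all genes by 0.056. With both libraries of the most extreme scores left out the slope of Gfra1 was 0.12 (adjusted p = 0.612, edgeR). The adjusted p of Gfra1 thus ran from 0.00798 to 0.612 over the alternatives.

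**Figure D4:**
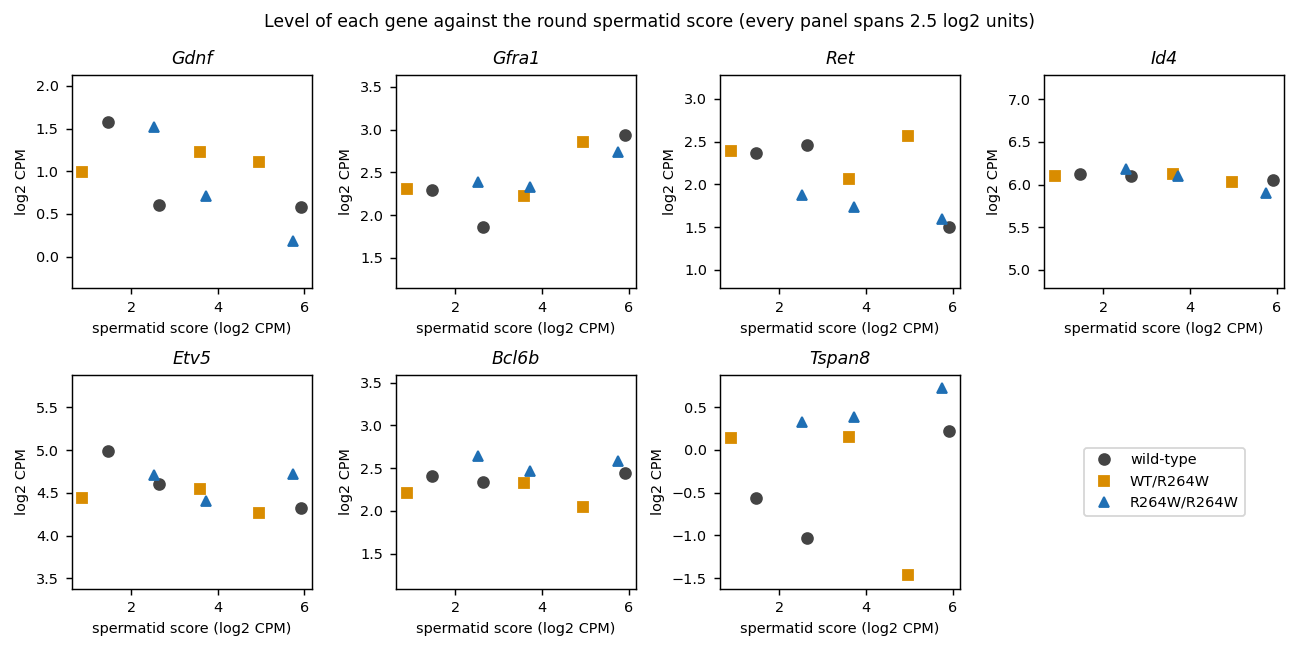
The log2 CPM of each of the 7 genes past the filter is plotted against the spermatid score (20 round spermatid genes, mean log2 CPM) with 1 point for each testis and every vertical axis spanning the same range. Gfra1 is highest in the 3 testes with scores of 4.96 to 5.92, Id4 is level, and Gdnf and Ret scatter widely.

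The ligand and the kinase receptor had negative slopes that did not pass the test. Gdnf changed by -0.16 per unit (-0.34 to 0.02; adjusted p = 0.171, edgeR), and the wild-type testis with the lowest score and the Piwil4 R264W/R264W testis with the highest score held the most and the least Gdnf, at 2.94 and 1.09 CPM. Ret changed by -0.095 (-0.22 to 0.03; adjusted p = 0.242, edgeR). With Piwil4 WT/R264W testis 1 left out, its slope was -0.16 and it was called (adjusted p = 0.0322, edgeR), and with wild-type testis 1 left out the slope was -0.0086. Etv5 (-0.067, adjusted p = 0.176), Id4 (-0.030, adjusted p = 0.279), Bcl6b (-0.0050, adjusted p = 0.941) and Tspan8 (0.042, adjusted p = 0.815) did not pass the edgeR test. For Id4 and Bcl6b the direction turned when libraries were scaled to the Sertoli genes, to 0.026 and 0.052, a scaling that moved the median slope of all genes by 0.056.

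**Figure D5:**
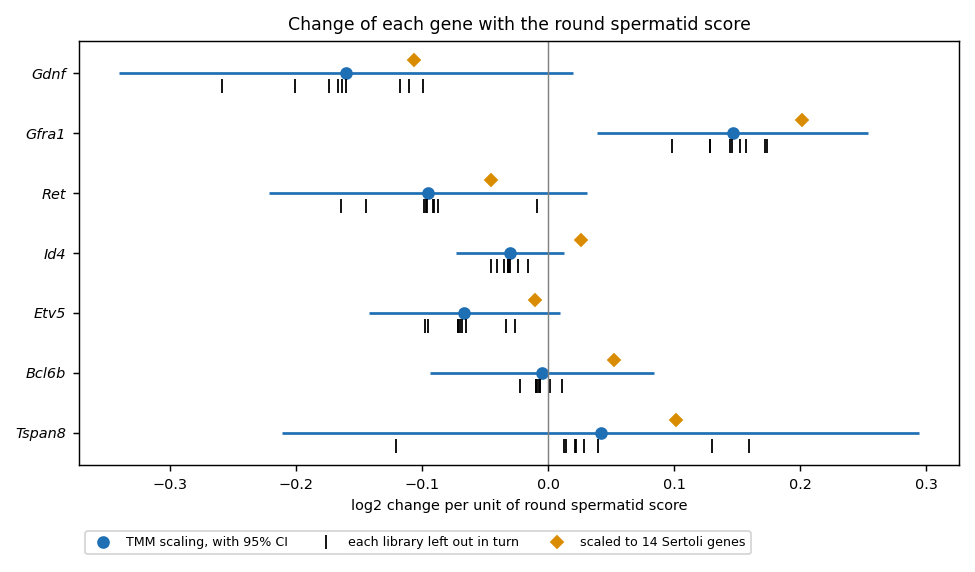
The log2 change for each unit of the spermatid score is plotted for 7 genes as the edgeR estimate with its 95% confidence interval (circle and line), with each of the 9 libraries left out in turn (ticks) and with libraries scaled to 14 Sertoli genes (diamonds). Gfra1 is the 1 gene whose interval, 0.04 to 0.25, leaves out 0, and every diamond lies to the right of its circle. The Sertoli scaling moved the median slope of all genes by 0.056.

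Other genes of the pathway gave the setting. Of 30 further genes of undifferentiated spermatogonia, 26 were tested, and with the score 3 were lower (8.58% of all genes) and 0 higher (17.5% of all genes) at an adjusted p under 0.05 in edgeR, with a median slope of -0.061 against -0.012 over all genes. The 3 were Lin28a (-0.16 ± 0.041 per unit, adjusted p = 0.0111), which encodes an RNA-binding repressor of let-7 microRNAs, Taf4b (-0.10 ± 0.028, adjusted p = 0.0193), a subunit of the basal transcription factor TFIID, and Uchl1 (-0.076 ± 0.023, adjusted p = 0.0300), a ubiquitin hydrolase. Lin28a ran from 8.43 CPM in wild-type testis 1 (score 5.92) to 19.2 CPM in Piwil4 WT/R264W testis 3 (score 0.88). Its call was lost without wild-type testis 1 or without wild-type testis 3 (adjusted p up to 0.122), and it was also called when scaled to the Sertoli genes (-0.11, adjusted p = 0.0395, edgeR), where Taf4b (-0.048, adjusted p = 0.308) and Uchl1 (-0.021, adjusted p = 0.694) were no longer called. This scaling moved the median slope of all genes by 0.056. The calls of Taf4b and Uchl1 held in 4 of 9 fits with 1 library left out, being lost without wild-type testis 1 or 3, Piwil4 WT/R264W testis 3, or Piwil4 R264W/R264W testis 1 or 3.

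Of 19 genes of the GDNF family and other niche factors, 16 were tested, and 2 were higher (17.5% of all genes) and 0 lower (8.58% of all genes) with the score. Gfra2, the co-receptor of the related ligand neurturin, was higher by 0.23 ± 0.042 per unit (adjusted p = 0.00148, edgeR), from 4.10 CPM in Piwil4 WT/R264W testis 3 to 11.9 CPM in wild-type testis 1. It was called in 9 of 9 fits with 1 library left out (slopes of 0.20 to 0.25), and was not called when both libraries with the most extreme scores were left out (slope 0.22, adjusted p = 0.205). Csf1r, the macrophage receptor for the niche factor CSF1, was higher by 0.096 ± 0.031 (adjusted p = 0.0370, edgeR) and held in 2 of 9 such fits, those without Piwil4 WT/R264W testis 2 and without Piwil4 R264W/R264W testis 1. Of 16 genes of RET signal transduction and feedback, all tested, 0 were higher (17.5% of all genes) and 5 lower (8.58% of all genes), with a median slope of -0.052 against -0.012 over all genes. Among them were the Src family kinase Yes1 (-0.092 ± 0.021, adjusted p = 0.00675), the adaptor Grb2 (-0.10 ± 0.028, adjusted p = 0.0182) and the ERK phosphatase Dusp6 (-0.12 ± 0.036, adjusted p = 0.0230), all in edgeR. Scaled to the Sertoli genes, which moved the median slope of all genes by 0.056, 0 of the 16 were called. The slopes of these 3 were then -0.036, -0.047 and -0.069. With 1 library left out, Yes1 lost its call without Piwil4 WT/R264W testis 3 alone, Dusp6 also without wild-type testis 1 or 3, and Grb2 without wild-type testis 1 or 3 or Piwil4 R264W/R264W testis 1 or 3. Markers of other cells were also counted, beside 17.5% of all genes higher and 8.58% lower with the score. Of 14 Sertoli genes 3 were lower and 1 higher, of 8 early meiotic genes 5 were lower, and of 12 pachytene genes 9 were higher. Of 6 Leydig cell genes 2 were higher, Cyp17a1 (0.74 per unit, adjusted p = 0.00306, edgeR) and Cyp11a1 (0.32, adjusted p = 0.00536, edgeR), and all 6 slopes were positive. Of the endothelial, macrophage and peritubular myoid lists 1 gene each was higher, of 7, 6 and 6, the macrophage gene being Csf1r itself. Of 8 genes of differentiating spermatogonia 1 was higher and 1 lower. In lists this short, 1 call is not read as a result about the list. The part of these markers in the results was not tested.

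Between genotypes, 0 genes of these 3 lists were called at an adjusted p under 0.05 in edgeR or DESeq2. For Piwil4 R264W/R264W against Piwil4 WT/R264W, 4 of the 26 tested genes of undifferentiated spermatogonia had positive fold changes, with a median of -0.25 against 0.01 over all genes, of which 51.4% were positive. At an unadjusted p under 0.05 in edgeR, 2 of the 26 were lower, Rarg (-0.45) and Nanos3 (-1.35). Of the RET list 1 of 16 passed, Egr1 (-0.49), and of the niche list 1 of 15, Ncam1 (0.42). Of all genes tested, 2.22% passed in either direction. These named genes were chosen after their values were seen. The spermatid score averaged 3.99 in Piwil4 R264W/R264W and 3.14 in Piwil4 WT/R264W testes, and its part was not tested for the undifferentiated list. For Piwil4 R264W/R264W against wild-type the median of the undifferentiated list was -0.10, with 7 of 26 positive (48.0% of all genes). At an unadjusted p under 0.05 in edgeR it had 0 genes (1.26% of all genes). For Piwil4 WT/R264W against wild-type the median was 0.14, with 22 of 25 positive (44.9% of all genes) and 0 at that level (1.11% of all genes). Zbtb16, which encodes the marker PLZF and was chosen after its values were seen, had 13.1 ± 1.55 CPM in wild-type, 13.7 ± 0.40 in Piwil4 WT/R264W and 11.4 ± 2.20 in Piwil4 R264W/R264W testes (SD, n = 3), with a fold change of -0.20 ± 0.18 (SE) for the last against the first.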

How the data were processed

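RNA was extracted with TRIzol from whole testes of 3 genotypes, 3 samples each, grouped by the sample labels. Per the submitters' processing notes the reads were filtered with fastp (0.18.0) and assembled with StringTie (1.3.1), with mm39 as genome build. The aligner, annotation release and counting tool are not given in the sources used here. The authors deposited FPKM values rounded to 2 decimals and estimated counts, of which 89.2% were whole, and these counts were rounded. In R (4.3.3), edgeR (4.0.16) with filterByExpr (minimum count 10), TMM and the quasi-likelihood test was run two-sided on each pair of genotypes and on 9 testes for the score, with Benjamini-Hochberg adjustment over all genes tested. Log2 CPM used a prior count of 1. The scripts were tested on simulated data. Alternatives were DESeq2 (1.42.0), its size factors, Sertoli scaling, no filter, the replicate number as a block, limma (3.58.1) on log2(FPKM + 0.1), other covariates or scores, and each library left out. Positions are those of GENCODE for GRCm38, matched by gene identifier for 99.5% of genes. The genes and lists were chosen with earlier results of these data known. Pathway genes were named by the 3 smallest p for the score in each direction. Same-numbered testes had deviations from their group means that correlated over genes at -0.73 to 0.065 for Piwil4 R264W/R264W against wild-type, at -0.73 to -0.15 against Piwil4 WT/R264W, and at 0.71, -0.073 and 0.78 for Piwil4 WT/R264W against wild-type. In no comparison were all 3 pairs above 0.1, so the numbers were not taken to pair the samples.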

Additional observations from a re-analysis of the deposited data

How the results depend on the processing

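No genotype comparison called any of the 10 genes or of the 3 pathway lists under any alternative, the replicate block included (0 genes). Between genotypes most folds lie near 0, and the sign of several turned. For Piwil4 R264W/R264W against wild-type, Gfra1 was -0.037 with Sertoli scaling, -0.0026 with the score as covariate and -0.48 with limma on FPKM, and with the covariate Gdnf was 0.015 and Etv5 0.013. Against Piwil4 WT/R264W, Id4 was 0.078 with Sertoli scaling and 0.0021 with the covariate, and Gfra1 -0.11 with the covariate and -0.12 with limma. For Piwil4 WT/R264W against wild-type, Sertoli scaling gave -0.16 for Gfra1, -0.0019 for Gdnf, -0.063 for Tspan8 and -0.082 for Zbtb16, and limma -0.36 for Gfra1 and 0.031 for Id4. With each library left out, in the order of these comparisons, Gfra1 ran from -0.14 to 0.40, from -0.14 to 0.24 and from -0.17 to 0.40, Gdnf from -0.53 to 0.34, from -0.65 to 0.057 and from -0.061 to 0.53, and Id4 from -0.087 to 0.045, from -0.079 to 0.054 and from -0.028 to 0.020. Etv5 ran from -0.19 to 0.15 in the first comparison, and in the last Ret ran from -0.057 to 0.38, Tspan8 from -0.11 to 0.58 and Zbtb16 from -0.030 to 0.16. Both limma values for Gfra1 against wild-type include the 3.59 FPKM of wild-type testis 3. The other causes were not tested.

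For the score, the number of the 10 genes called was 0 with DESeq2, with the replicate block, with the pachytene list as the score, and without both libraries of extreme score, an alternative chosen after seeing the data. It was 0 to 1 with each library left out, the 1 being Gfra1 without Piwil4 WT/R264W testis 2 and Ret without Piwil4 WT/R264W testis 1. The slope of Id4 turned to 0.026 and that of Bcl6b to 0.052 with Sertoli scaling, Bcl6b to 0.013 without genotype and 0.060 with the pachytene list, and Tspan8 to -0.048 without the extreme libraries. With each library left out Bcl6b ran from -0.022 to 0.011 and Tspan8 from -0.12 to 0.16. Counts of called genes and of groups without overlap follow for the alternatives. The shares of all genes in the same fits are not given here, so these counts are not read as a result about the lists. Of the undifferentiated list 1 gene was called with Sertoli scaling and 0 without the extreme libraries, and 0 to 8 with each library left out (0 without wild-type testis 1 or 3, 1 without Piwil4 WT/R264W testis 3 or Piwil4 R264W/R264W testis 1 or 3, and 8 without Piwil4 WT/R264W testis 1). Of the niche list 1 was called with the replicate block, 5 with the pachytene list and 0 without the extreme libraries, and 1 to 4 with each library left out (4 without Piwil4 WT/R264W testis 1 or 2, and 1 without any 1 of the wild-type testes or Piwil4 R264W/R264W testis 2 or 3). Of the RET list 0 were called with Sertoli scaling, 2 with the replicate block and 0 without the extreme libraries, and 1 to 7 with each library left out (1 without wild-type testis 1 or 3, 2 without Piwil4 WT/R264W testis 3 or Piwil4 R264W/R264W testis 1 or 3, 3 without wild-type testis 2 or Piwil4 R264W/R264W testis 2, and 7 without Piwil4 WT/R264W testis 1). Relative to Sertoli genes, groups without overlap numbered 0 to 4, 3 to 6 and 1 to 4 in the order above with each library left out, where groups of 2 separate more easily than groups of 3 (4 without wild-type testis 1 and 2 without Piwil4 R264W/R264W testis 1 in the first, 6 without Piwil4 WT/R264W testis 2 in the second, and 2 without wild-type testis 2 and 4 without Piwil4 WT/R264W testis 2 in the last), and relative to the peritubular myoid genes 1 and 0 in the second and last comparisons. Depth limits Nanos2, Eomes and Lhx1, which had at most 15 counts.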
